A study of Mus musculus with 2 samples.

Results

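The 10 genes described here encode the enzymes that cut and finish prohormones and the proteins packed with them into secretory granules: *Pcsk1*, *Pcsk1n*, *Cpe*, *Pam*, *Scg2*, *Scg3*, *Scg5*, *Vgf*, *Resp18* and *Ptprn*. They were chosen by symbol, and each of the 10 had 1 row with an estimate in both libraries, out of 23532 symbols estimated in both. The major granins *Chga* and *Chgb* were left out because the files hold no estimate for them in the GFP+ library. The RNA came from organoids of the mouse small intestine, epithelial cultures grown from isolated crypts in a gel with epidermal growth factor, noggin and R-spondin conditioned medium. All cells came from ChgA-GFP reporter mice, whose green fluorescence (GFP) reports activity of the chromogranin A gene, and both fractions carry the reporter. The study asked which genes mark the serotonin-producing enterochromaffin cells of the gut lining. The GFP+ group was the roughly 1% of epithelial cells sorted as fluorescent, and the GFP- group was the cells left after that sort. Each group was 1 library of amplified polyadenylated RNA, so no difference here has a replicate check, an SD or a p-value. Animal age and number, and any pooling of organoids, were not stated in the labels used here.

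Endocrine cells make most peptide hormones as longer precursors. In the Golgi and the young granule a convertase cuts the precursor after pairs of basic residues, a carboxypeptidase trims the exposed basic residues, and an amidating enzyme turns an end glycine into an amide. Granins are acidic proteins that condense with the hormones in the dense core of the granule, and several of them are themselves cut into peptides. In the gut epithelium this machinery is typical of enteroendocrine cells, its scattered hormone-producing cells, of which enterochromaffin cells are 1 type.

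The DNA before the start of these genes is shown first for 4 members. *Pcsk1* and *Scg2* are the 2 members whose window holds the full cAMP response element, the binding sequence of the CREB family of transcription factors. *Ptprn* holds the shorter core of that element, and *Resp18*, the member with the largest difference on the log2 scale, holds neither. Each line gives the 250 bases before a transcription start listed by RefSeq (GRCm38.p6, the assembly that mm10 also names), 5′ to 3′ on the strand of the gene. Capitals mark TGACGTCA or TGACG on either strand.
*Pcsk1* (chr13:75089607-75089856, plus strand): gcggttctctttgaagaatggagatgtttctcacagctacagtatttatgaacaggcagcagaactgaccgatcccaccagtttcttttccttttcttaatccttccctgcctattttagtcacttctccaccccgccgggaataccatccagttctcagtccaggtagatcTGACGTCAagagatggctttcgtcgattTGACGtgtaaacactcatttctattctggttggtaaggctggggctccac
*Scg2* (chr1:79440027-79440276, minus strand): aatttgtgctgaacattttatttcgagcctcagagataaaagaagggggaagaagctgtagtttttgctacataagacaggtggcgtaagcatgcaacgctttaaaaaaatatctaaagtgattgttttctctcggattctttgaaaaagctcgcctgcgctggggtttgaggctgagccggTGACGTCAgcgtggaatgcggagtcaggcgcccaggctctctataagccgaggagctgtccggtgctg
*Ptprn* (chr1:75264209-75264458, minus strand): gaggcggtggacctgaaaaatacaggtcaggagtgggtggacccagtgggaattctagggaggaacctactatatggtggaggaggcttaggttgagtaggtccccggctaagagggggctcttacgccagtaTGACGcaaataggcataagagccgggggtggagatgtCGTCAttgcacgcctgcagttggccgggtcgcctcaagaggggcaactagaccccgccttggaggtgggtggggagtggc
*Resp18* (chr1:75278416-75278665, minus strand): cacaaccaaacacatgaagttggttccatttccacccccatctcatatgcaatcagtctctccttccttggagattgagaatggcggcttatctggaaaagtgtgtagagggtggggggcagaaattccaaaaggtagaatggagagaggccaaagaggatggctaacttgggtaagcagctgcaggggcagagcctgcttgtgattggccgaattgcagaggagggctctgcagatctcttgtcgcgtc

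RefSeq windows were found for 8 of the 10 genes, as 10 windows, since *Ptprn* and *Pam* have 2 starts each. *Cpe* and *Vgf* were not among them. The palindrome TGACGTCA began 78 bases before the start of *Pcsk1* (position -78) and 68 bases before that of *Scg2* (-68). It was found in 2 of 10 windows, against 1.55% of all 32851 windows. The core TGACG, searched on both strands and contained in the full element, was found in 5 of 10 windows, those of *Pcsk1*, *Scg2*, *Scg3*, *Scg5* and 1 of *Ptprn*, against 17.8% of all windows. *Pcsk1* had a further core at -50 and *Ptprn* had 2, at -117 and -80. *Scg3* had it at -30 and *Scg5* at -175. GGGCGG, the GC box, was in 5 of 10 windows (*Ptprn*, *Pcsk1n*, *Scg5* and both of *Pam*), against 32.7% of all windows. The windows of *Pam* overlap for most of their length and share sites, and by gene the GC box was found in 4 of 8. CCAAT was in 2 windows (*Resp18* and *Scg3*) against 33.8%, and TATAAA in 0 against 12.4%. These are matches of letters in a window, not measured binding sites.

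All 10 genes were higher in the GFP+ library. Levels are FPKM (fragments counted per kilobase of a transcript, corrected for the size of the library), so levels of different genes are compared per length. Differences are log2((FPKM + 1) in GFP+ / (FPKM + 1) in GFP-), a scale that makes changes of weakly expressed genes look smaller than they are. A gene that reached 1 FPKM in either library was counted as higher when this difference was at least 2, which is 4-fold. By this rule 10 of 10 members were higher and 0 lower, where 7.09% of the 11868 genes tested were higher and 4.59% lower. The members were chosen with earlier results of these data known, so this count is a description and not a test. The median difference of the members was 4.82, with a range from 2.06 to 6.34, and that of all genes tested was -0.12. *Pcsk1n*, *Pam* and *Ptprn* were below 1 FPKM in GFP-, so only their GFP+ level carried them past the filter, and their sign was fixed by it. The summed level of the 10 genes was 66.6 FPKM in GFP- compared with 3067 in GFP+, or 46.1 times as high. In bulk samples like these, more cells of a type and more RNA per cell cannot be told apart.

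**Figure D1:**
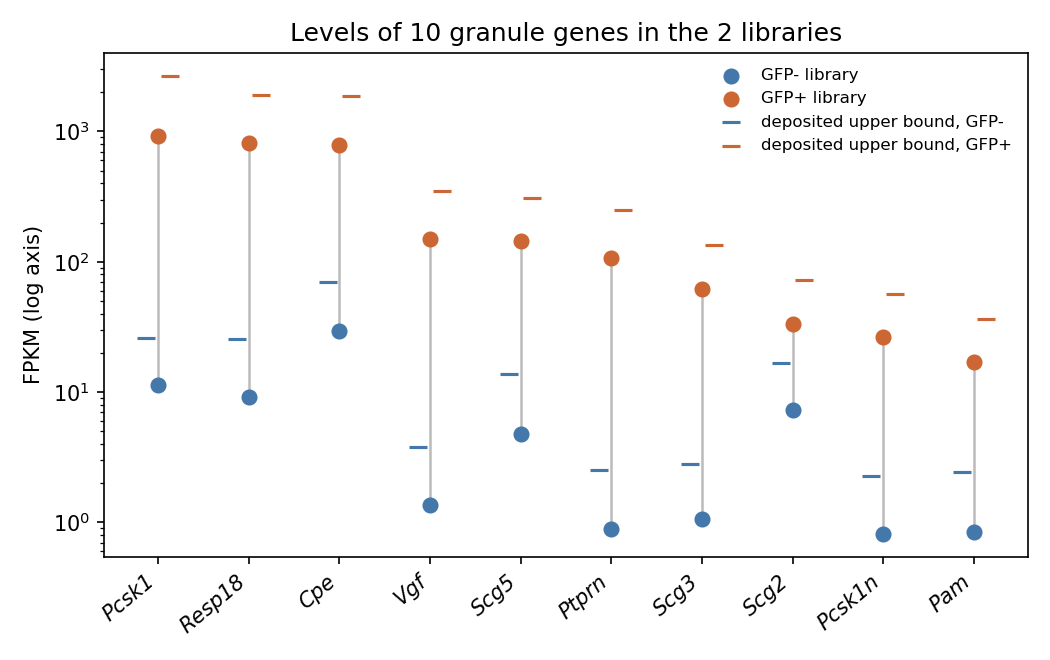
FPKM of the 10 genes (log axis) in the GFP- library (blue points) and the GFP+ library (orange points), ordered by the GFP+ level, with short bars for the upper confidence bounds in the deposited files. Each GFP+ point lies above the GFP- point and above the GFP- upper bound of the same gene, with the narrowest gap for *Scg2* at 7.27 and 33.5 FPKM. The GFP- upper bounds are 2.29 to 2.88 times the GFP- level, so any of these genes past 4-fold lies above its own.

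*Pcsk1*, the prohormone convertase (also called PC1/3) that makes the first cuts in many gut hormone precursors, was at 11.3 FPKM in GFP- compared with 930 in GFP+. The ratio was 82.1 and the log2 difference 6.24. It was the most abundant member in GFP+, where 18 of the 23532 symbols had a higher level, and it ranked 6286 in GFP-. Ranks here leave out the 5 rows with too many fragments for an estimate in GFP+, *Chga* and *Chgb* among them. Its row covers chromosome 13, 75089987 to 75132498 (mm10), inside the protein-coding gene annotated on the plus strand from 75089826 to 75134861 (GENCODE M21). *Cpe*, the carboxypeptidase that removes the basic residues the convertases leave behind, was at 29.2 FPKM in GFP- compared with 782 in GFP+. It was the most abundant of the 10 in GFP-, and its ratio of 26.8 (difference 4.70) was one of the smaller ones. The level of *Cpe* was thus 2.58 times that of *Pcsk1* in GFP- and 0.841 times in GFP+. *Cpe* lies on chromosome 8, 64592551 to 64693040.

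*Pam*, which carries out the amidation of peptide ends, had the lowest level of the 10 in GFP+. It was at 0.848 FPKM in GFP- compared with 16.9 in GFP+, a ratio of 19.9 and a difference of 3.28. With a pseudocount of 5 its difference was 1.91, under the 4-fold rule. Its level was 0.0291 times that of *Cpe* in GFP- and 0.0216 times in GFP+, so amidation and trimming enzyme messages stood far apart in both libraries. The row of *Pam* (chromosome 1, 97821094 to 98095632) shares its listed locus with the noncoding symbol *B230216N24Rik*, listed at 0 in GFP- and at 1.33 FPKM in GFP+. The annotated gene, on the minus strand, runs from 97795114 to 98095646, so its 3′ end lies outside the row. Whether this affects the listed level of *Pam* was not tested.

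The 2 members known as convertase partners differed in level. *Pcsk1n* encodes proSAAS, a granin-like protein with a peptide that inhibits PCSK1. It was at 0.816 FPKM in GFP- compared with 26.3 in GFP+, a ratio of 32.2 and a difference of 3.91. The level of *Pcsk1* was 13.9 times that of this inhibitor in GFP- and 35.4 times in GFP+. The listed locus of *Pcsk1n* (chromosome X, 7919822 to 7928607) runs past the annotated gene, which ends at 7924410, and is shared with *Eras*, listed at 0 in both libraries. *Scg5* encodes 7B2, the chaperone that the related convertase PCSK2 needs to mature. It was at 4.77 FPKM in GFP- compared with 144 in GFP+, a ratio of 30.2 and a difference of 4.65. *Pcsk2* itself was at 0.0211 FPKM in GFP- compared with 4.52 in GFP+. The chaperone message in GFP+ was 31.9 times the level of that client, and *Pcsk1* was 206 times the level of *Pcsk2*.

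Among the granin cargo genes the differences were uneven. *Scg2*, secretogranin II, the precursor of secretoneurin, had the smallest difference of the 10, with 7.27 FPKM in GFP- compared with 33.5 in GFP+. Its ratio was 4.60 and its difference 2.06, close to the 4-fold rule, and with a pseudocount of 5 the difference was 1.65. *Scg3*, a granin that binds chromogranin A and granule membranes, was at 1.06 FPKM in GFP- compared with 62.2 in GFP+, a ratio of 58.7 and a difference of 4.94. The order of these genes therefore turned over: *Scg3* was at 0.146 times the level of *Scg2* in GFP- and at 1.86 times in GFP+. *Vgf*, a neurotrophin-induced granin cut into several peptides, was at 1.35 FPKM in GFP- compared with 149 in GFP+, a ratio of 110 and a difference of 5.99. *Scg2* lies on chromosome 1 (79434669 to 79440090), *Scg3* on chromosome 9 (75643366 to 75684056), *Scg5* on chromosome 2 (113776313 to 113829091) and *Vgf* on chromosome 5 (137030295 to 137033351). *Vgf* and *Scg2* stood at opposite ends of the cargo genes by ratio, although *Scg2* was the more abundant of the pair in GFP-.

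*Resp18* and *Ptprn* are neighbours on the minus strand of chromosome 1, with listed loci 7993 bases apart (75272202 to 75278380 and 75247041 to 75264208) and no other row between them. *Resp18*, an endocrine secretory-pathway protein whose sequence resembles part of the one encoded by *Ptprn*, was at 9.09 FPKM in GFP- compared with 817 in GFP+, a ratio of 89.9. Its difference of 6.34 was exceeded by 14 of the 11868 genes tested. *Ptprn* encodes IA-2, a phosphatase-like protein of the granule membrane and a known autoantigen in type 1 diabetes. It was at 0.894 FPKM in GFP- compared with 107 in GFP+, a ratio of 119, the highest ratio of the 10 genes, and a difference of 5.83. The level of *Resp18* was 10.2 times that of *Ptprn* in GFP- and 7.66 times in GFP+.

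The rows beside the members in the files were mostly within 4-fold. Of 18 flanking rows that are not members, 1348 to 614643 bases away, 13 reached 1 FPKM in a library, with a median difference of -0.13. Among them 1 was higher and 1 lower by the 4-fold rule, beside 7.09% and 4.59% of all genes tested. The higher one was *1810006J02Rik*, next to *Pam* on chromosome 1, at 0.255 FPKM in GFP- compared with 17.3 in GFP+. It did not reach 1 FPKM in GFP-, so the filter fixed its sign. The lower one was the microRNA row *Mir682*, next to *Pcsk1*, at 3196 against 797 FPKM. Both were named after their values were seen.

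Within the group, abundance was concentrated in a few genes. *Pcsk1*, *Resp18* and *Cpe* together held 82.4% of the summed FPKM of the 10 in GFP+ and 74.5% in GFP-. In GFP+ these 3 ranked 19, 23 and 32 of 23532 symbols, the best ranks possible because rows without an estimate were left out. *Vgf*, *Scg5*, *Ptprn* and *Scg3* followed at 459, 486, 745 and 1458, which also lies in the top 10% of the library. *Scg2*, *Pcsk1n* and *Pam* ranked 2866, 3610 and 5014. In GFP- none of the 10 was in the top 10%, and *Cpe* was highest at 3789. The highest level was 55.0 times the lowest in GFP+ and 35.7 times in GFP-. By ratio the order ran from *Ptprn* through *Vgf*, *Resp18*, *Pcsk1*, *Scg3*, *Pcsk1n*, *Scg5*, *Cpe* and *Pam* to *Scg2*, which differs from the order by level. Without replicates it cannot be said which neighbours in either order differ beyond experimental spread.

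**Figure D2:**
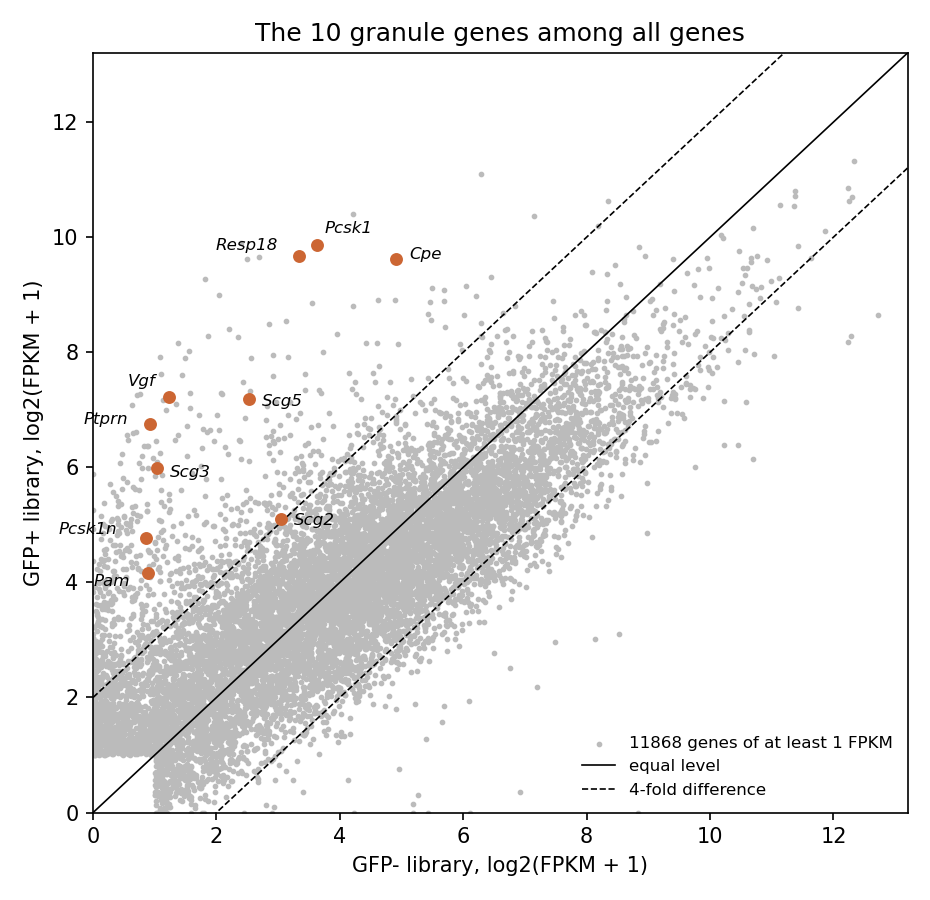
Level in the GFP- library (x axis) and the GFP+ library (y axis), both log2(FPKM + 1), of the 11868 genes of at least 1 FPKM (grey) and the 10 granule genes (orange, named). All 10 lie above the upper dashed line of a 4-fold difference, with *Scg2* at 2.06 just above it and *Resp18* farthest from it at 6.34.

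The deposited confidence bounds gave no separation by themselves. The lower bound was 0 for all 10 genes in both libraries, so the bounds of the libraries overlapped for all 10. The GFP+ level exceeded the GFP- upper bound for 10 of 10 genes, the closest being *Scg2* at 33.5 FPKM against an upper bound of 16.7. These upper bounds were only 2.29 to 2.88 times the GFP- level, so a member past 4-fold was sure to exceed its own. The count therefore adds nothing to the 4-fold calls, and its share over all genes was not computed. Fragment numbers were estimated from the spacing of low values in the files and the longest annotated transcript. By this estimate the lowest member, *Pcsk1n* in GFP-, stood on about 106 fragments, with a 95% exact Poisson interval from 0.668 to 0.988 FPKM, and each member in GFP+ stood on at least 3444. Such intervals cover counting error only, since the cDNA was amplified and carried no molecular identifiers.

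The related genes were less uniform. Of 7 other convertases and related proteases, all of at least 1 FPKM in a library, the median difference was 0.43. Among them 1 was higher and 0 lower, where 7.09% and 4.59% of all genes tested were. A count of 1 in so short a list cannot be told from those shares. The higher one was *Pcsk2*, the second convertase of endocrine granules, at 0.0211 FPKM in GFP- (about 5.87 fragments) and 4.52 FPKM in GFP+. Its difference was 2.43, and 0.92 with a pseudocount of 5. *Pcsk2* did not reach 1 FPKM in GFP-, so the filter fixed its sign. *Furin*, the convertase found in most cells, was at 11.9 FPKM in GFP- compared with 10.5 in GFP+, and was named for comparison with *Pcsk1* after its values were seen. *Pcsk1* was at 0.956 times the level of *Furin* in GFP- and at 88.6 times in GFP+. *Pcsk6* had a difference of -1.13 (2.05 and 0.390 FPKM), *Pcsk5* one of -0.80 (8.57 FPKM in GFP-) and *Pcsk7* one of 1.15 (9.26 and 21.7 FPKM). With a pseudocount of 0.1 *Pcsk6* passed the rule as lower, at -2.13. It did not reach 1 FPKM in GFP+, so the filter fixed its sign as well.

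Of 11 other trimming and end-modifying enzymes 6 reached 1 FPKM, with a median difference of 0.70. Among them 1 was higher and 0 lower, too few to tell from the 7.09% and 4.59% of all genes tested. That one was *Tpst1*, a sulfotransferase that adds sulfate to tyrosines of secreted proteins, at 8.81 FPKM in GFP- compared with 113 in GFP+ (difference 3.54). Its relative *Tpst2* had a difference of 1.47 (32.4 and 91.3 FPKM), which passed the rule at 2.08 with both libraries rescaled to the same total. *Cpd*, the carboxypeptidase of the trans-Golgi with the same chemistry as *Cpe*, had a difference of 0.78 (4.60 and 8.61 FPKM), and *Cpm* one of 0.61. *Cpe* was at 6.34 times the level of *Cpd* in GFP- and at 90.7 times in GFP+.

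Of 13 other granin and granule membrane genes 11 had an estimate and 8 reached 1 FPKM. The 2 without an estimate were *Chga* and *Chgb*, at 133 and 392 FPKM in GFP-, above each of the 10 members there. Of the 8, 5 were higher and 0 lower (7.09% and 4.59% of all genes tested), with a median difference of 2.33. In GFP- 4 of the 8 did not reach 1 FPKM, so their sign was fixed by the filter and these numbers are no support for a direction. *Ptprn2*, the close relative of *Ptprn* in the granule membrane, was at 0.473 FPKM in GFP- compared with 28.0 in GFP+ (difference 4.30). *Ptprn* was at 1.89 times its level in GFP- and at 3.81 times in GFP+. The vesicular monoamine transporters *Slc18a2* and *Slc18a1* had differences of 6.02 and 5.31, and *Sv2a*, a vesicle membrane glycoprotein, one of 2.43, which was 0.96 with a pseudocount of 5.

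Of 20 genes of granule formation and sorting 19 reached 1 FPKM, with a median difference of 0.38. Among them 3 were higher and 0 lower, beside 7.09% and 4.59% of all genes tested. With a pseudocount of 0.1, with the median ratio of well-expressed genes set to 0 or with the libraries rescaled to the same total, 6 were higher in each case, where 12.8%, 10.8% and 11.2% of all genes were. *Bace1*, an aspartyl protease of the secretory pathway, was at 1.14 FPKM in GFP- compared with 41.0 in GFP+ (difference 4.29). *Ica1*, an islet autoantigen linked to granule budding, was at 18.3 and 106 FPKM (difference 2.46). *Hid1*, a trans-Golgi protein needed for granule maturation, was at 15.9 and 67.9 FPKM, a difference of 2.03 that fell to 1.80 with a pseudocount of 5. *Rundc1* had a difference of 1.96 and passed the rule under those 3 alternatives. The enzymes and cargo described above differed by more than most of the listed trafficking genes, and whether the groups of genes differ beyond error cannot be tested with 1 library each.

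**Figure D3:**
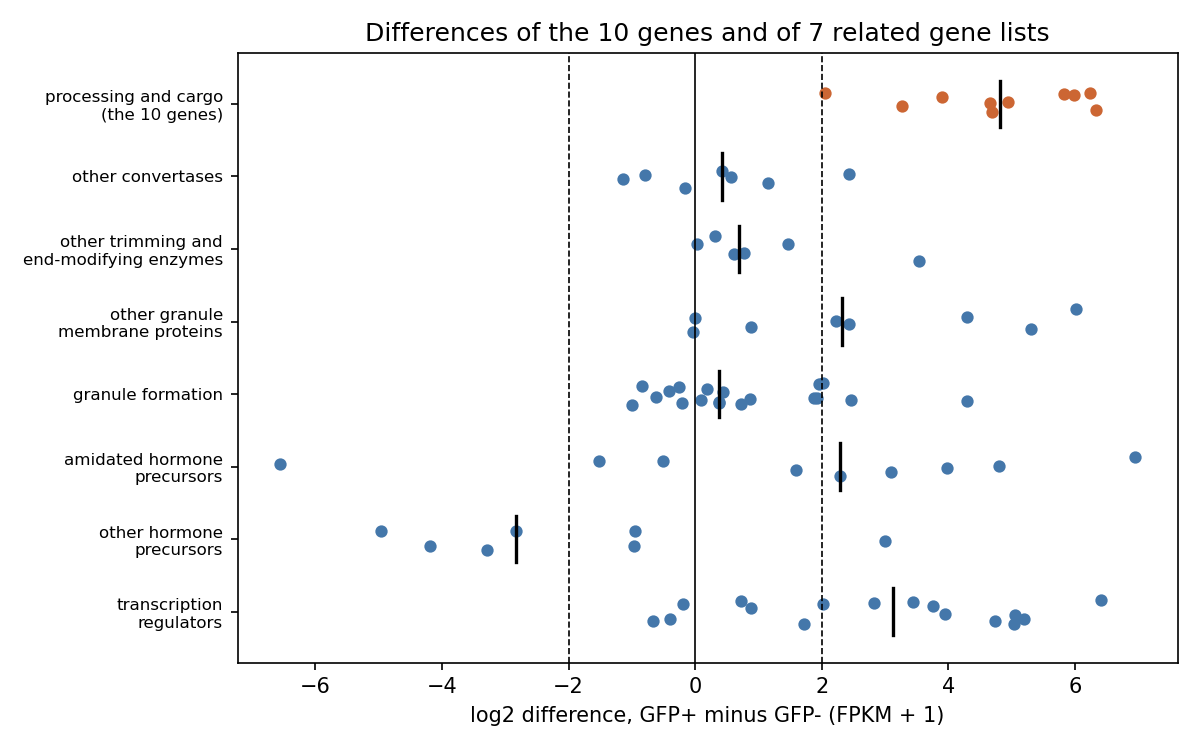
Log2 difference, GFP+ minus GFP-, of each gene of at least 1 FPKM in the 10-gene group (orange) and in 7 lists of related genes (blue), with a black bar at each median and dashed lines at 4-fold. The 10 genes lie between 2.06 and 6.34, whereas the granule formation genes centre on 0.38 and the hormone precursors lie on both sides of 0.

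The listed precursors of gut peptides, not all of them known to be cut by these enzymes, went in both directions. Of 13 precursors of amidated gut peptides, which need *Pam* for their final form, 9 reached 1 FPKM, with a median difference of 2.30. Among them 5 were higher and 1 lower, beside 7.09% and 4.59% of all genes tested. *Tac1*, the substance P precursor, was at 77.5 FPKM in GFP- compared with 2200 in GFP+ (difference 4.81). *Ucn3*, urocortin 3, was at 3.13 and 509 FPKM (difference 6.95), and *Iapp*, the amylin precursor, at 2.55 and 54.7 FPKM (difference 3.97). *Gcg*, the proglucagon gene of L cells, went the other way, at 120 FPKM in GFP- compared with 0.286 in GFP+. Of 10 precursors of peptides without an amide, 9 had an estimate and 7 reached 1 FPKM, and 1 was higher and 4 lower, with a median difference of -2.83. *Sst* had a difference of -4.96 (37.6 and 0.236 FPKM), *Ghrl* one of -4.19 (30.0 and 0.696 FPKM) and *Guca2a*, a precursor made by many epithelial cells, one of -3.30. *Penk*, the enkephalin precursor, had a difference of 3.01 (0.137 and 8.14 FPKM), which was 1.35 with a pseudocount of 5. In GFP+ the level of *Pam* was 0.00768 times that of *Tac1*, the most abundant of these precursors, and that of *Pcsk1* was 0.423 times. In GFP- the same ratios were 0.0109 and 0.146. The filter fixed the sign of *Penk* and of *Gast* (0.639 FPKM in GFP-), both called higher and below 1 FPKM in GFP-. It did the same for *Gcg*, *Sst*, *Ghrl* and *Nts*, called lower and below 1 FPKM in GFP+.

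Transcription regulators of endocrine and neuronal genes were measured beside them. Of 16 listed genes, all of at least 1 FPKM in a library, the median difference was 3.13. Among them 10 were higher and 0 lower, beside 7.09% and 4.59% of all genes tested. Of the 10, *Pax6*, *St18* and *Myt1* did not reach 1 FPKM in GFP-, so the filter fixed their sign. *Lmx1a*, a homeobox factor of enterochromaffin cells, had a difference of 6.42, *Rfx6* one of 5.19, *Nkx2-2* one of 5.06 and *Neurod1* one of 5.04. With a pseudocount of 5, 7 of the 16 passed the rule as higher, where 2.97% of all genes did. *Rest*, the repressor of neuronal genes whose known targets include several granins, and *Creb1*, a factor that binds the element shown above, did not pass it. *Rest* was at 5.70 FPKM in GFP- compared with 3.21 in GFP+, and *Creb1* at 4.31 and 7.81 FPKM. These 2 genes were picked for their known link to the members after their values were seen.

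Among all non-members, 5 genes lay nearest to the median position of the 10 in the plane of log2(FPKM + 1) in GFP- and GFP+, a likeness over 2 libraries only. They were *Il17re* (a receptor of the interleukin 17 receptor family), *Rfx6* (the endocrine transcription factor named above), *Gng4* (a G protein gamma subunit), *Lrp11* and *Pros1* (protein S of blood clotting), at distances of 0.14 to 0.33 on that scale, with GFP- levels of 1.98 to 3.03 FPKM and GFP+ levels of 98.9 to 130 FPKM. The 10 members themselves lay 0.68 (*Scg5*) to 4.02 (*Cpe*) from that point.

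The labelled fractions were checked against markers of the cell types they could hold. The shares to set beside these counts are 7.09% of all genes tested higher and 4.59% lower. Of 8 enterochromaffin markers, 6 had an estimate and all 6 were higher, with a summed level of 175 FPKM in GFP- compared with 5350 in GFP+. Of 10 markers of other endocrine cells, 1 was higher and 4 lower, and their sum was 615 FPKM in GFP- compared with 281 in GFP+. Messages of hormone-producing cells were thus present in the GFP- fraction as well. All 8 Paneth markers were lower (sums of 17546 and 1069 FPKM), as were 2 of 8 goblet, 2 of 8 tuft, 2 of 8 enterocyte and 5 of 8 stem and cycling markers. With the median ratio set to 0 or the same total, lower calls were 7 for Paneth, 1 for tuft, 0 for enterocyte and 3 for stem and cycling markers, and goblet stayed at 2; with a pseudocount of 5 tuft had 0. Of 8 markers from outside the epithelium 6 reached 1 FPKM, and 2 were higher, *Vim* (4.90 and 237 FPKM) and the endothelial marker *Pecam1* (0.187 and 10.4 FPKM). The list's sum was 6.66 FPKM in GFP- compared with 256 in GFP+. The fibroblast collagens *Col1a1* (0.0106 and 1.56 FPKM) and *Col3a1* (0.00593 and 1.61 FPKM) and the glial marker *Gfap* (0.00642 and 1.01 FPKM) also had higher GFP+ levels, and with a pseudocount of 0.1, 5 of the 6 passed the rule. In GFP- 4 of the 6 did not reach 1 FPKM, so the filter fixed their sign. The leukocyte marker *Ptprc* was at 0.0224 FPKM in both libraries. Of the neuronal markers, *Elavl4* was at 0.018 and 0.152 FPKM, and *Tubb3* at 1.51 and 4.58 FPKM (difference 1.15). The part of these other cells in the members' levels was not tested.

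Both scalings used here raised the difference of each member. Among 5563 genes that reached 10 FPKM in each library the median log2 ratio was -0.50, so a typical well-expressed gene was lower in GFP+, and the differences above are not corrected for this. With that median set to 0 the members' median difference was 5.31, and with both libraries rescaled to the same total it was 5.36. That total left out the 5 rows with too many fragments for an estimate in GFP+, *Chga* and *Chgb* among them. It is therefore not the full size of either library. All 10 passed the rule under both scalings, and also with a pseudocount of 0.1. Each of these settings raised the difference of every member, so no member could fall below the rule there. The share of all genes tested that were higher rose from 7.09% to 10.8% and 11.2%, and the share lower fell from 4.59% to 1.51% and 1.08%. A pseudocount of 5 was the single alternative under which members failed the rule, namely *Pam* and *Scg2*, leaving 8 of 10 where 2.97% of all genes were higher.

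**Figure D4:**
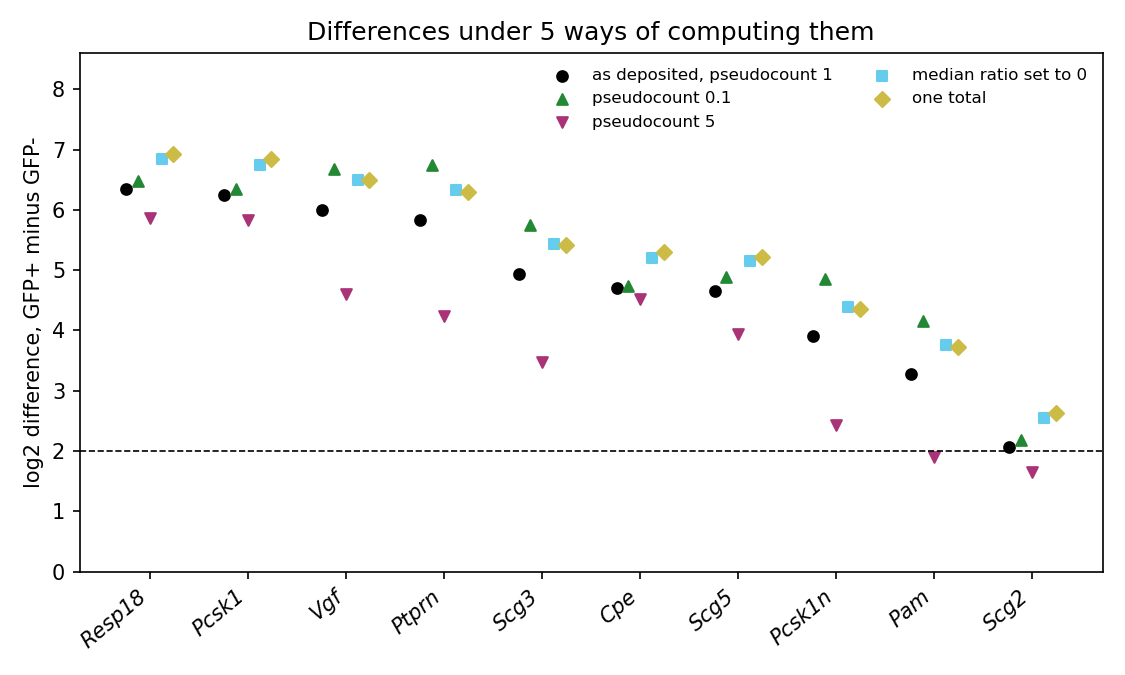
Log2 difference, GFP+ minus GFP-, of the 10 genes as deposited with a pseudocount of 1 (black), with pseudocounts of 0.1 and 5, with the median ratio of well-expressed genes set to 0, and with both libraries at the same total. The dashed line marks 4-fold, and the points below it are *Pam* at 1.91 and *Scg2* at 1.65 with a pseudocount of 5.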

How the data were processed

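RNA with poly(A) tails from 1 GFP- and 1 GFP+ fraction was amplified from low input, per the labels' protocols. The deposited files hold FPKM per gene with confidence bounds and a status, per the file headers. Per the submitters' processing notes, the authors used TopHat2 0.7, Cufflinks and Cuffdiff with mm10; for the annotation, library scaling and multiply mapping reads, the method is not given in the sources used here. Of 23793 rows, 5 had the status HIDATA (too many fragments) in GFP+ and were treated as not estimated. FPKM was summed per symbol. FPKM are not counts, so differences were taken on log2(FPKM + 1) over genes whose higher library reached 1 FPKM, and called at 4-fold. A gene below 1 FPKM in the other library had its sign fixed by this filter. With 1 library per fraction no test was made. Symbols missing from the files were sought in joined rows and as RefSeq synonyms (GRCm38.p6). Total depth is not given. Low FPKM values of single-transcript genes over 3000 bases came in steps, taken as 59.0 (GFP-) and 59.8 (GFP+) fragments per FPKM and kilobase; 75.2% of 109 and 59.0% of 83 low values lay within 0.1 of a whole number, with the unit chosen from the same values. Named genes were the 10 members, the 4 largest differences of each of 7 lists, those against their list's median by at least 2 on the log2 scale, and the 5 nearest genes; genes named outside this rule, such as neighbours, markers and comparison genes, were chosen after their values were seen. Members and lists were chosen with earlier results of these data known. Alternatives were pseudocounts of 0.1 and 5, no filter or 5 FPKM, 2 scalings and rows of status OK. Protein features planned for the members were not analysed here, and 1 gene of the convertase list is not reported here. Python 3.11.15, pandas 2.3.3, NumPy 2.4.6 and Matplotlib 3.10.9 were used.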

Additional observations from a re-analysis of the deposited data

How the results depend on the processing

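Each of the 10 members was past 4-fold under both scalings and with a pseudocount of 0.1, and 8 were with a pseudocount of 5, the exceptions being *Pam* and *Scg2*. Only the last of these settings could bring a member below the rule, since the others raised each member's difference. The other filters and the restriction to status OK left the members' values as they were by construction, and a pseudocount cannot turn a sign. With a pseudocount of 5 the members' median difference was 4.09. Over the alternatives *Scg2* ranged from 1.65 to 2.63, *Pam* from 1.91 to 4.16, *Ptprn* from 4.24 to 6.75 and *Resp18* from 5.87 to 6.93. Over all genes the number at least 4-fold higher was 1524 with a pseudocount of 0.1, 353 with 5, 1317 with the median ratio set to 0 and 1338 with the same total, against 841 as deposited. The number at least 4-fold lower was 809, 315, 184 and 130 under the same alternatives, against 545. The median difference of all genes tested moved from -0.12 to 0.35 and 0.45 under the 2 scalings. The list counts under these alternatives were added after seeing the data. Depth limits the low related genes rather than the members: *Pcsk2* in GFP- stood on about 5.87 fragments and *Penk* on 11.8. No paired analysis was possible because each fraction had 1 library.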
